A study of Mus musculus with 14 samples.

Results

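Recurring MyoG regions of activated muscle stem cells are places in the mouse genome where at least 2 of 3 MyoG ChIP-seq libraries of activated cells (ASCs) had a called peak. Peaks of the 3 ASC MyoG libraries were pooled, peaks overlapping by 1 bp or more were merged, and regions holding peaks of 2 or 3 libraries were kept. This gave 221 regions of the 1781 merged ASC MyoG regions, which is 12.4%, against 6557 merged regions over all 12 peak lists of the series. The regions were thus chosen by their peak calls in the 3 ASC MyoG lists, so recurrence and ASC MyoG scores and widths are given as a description.

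All cells came from wild-type mice carrying mito-Dendra2, a green mitochondrial protein switched on by a tamoxifen-inducible Cre under the control of Pax7, so only cells that had expressed Pax7 and their descendants were labelled. Tamoxifen was given at 75 mg/kg for 5 days. After 2 further days 1 tibialis anterior was injured with 50 µL of 1.2% BaCl2 and the opposite leg received saline, and cells were sorted 2 days after injury. ASCs were CD34- Dendra2+ DAPI- cells of injured muscle and quiescent cells (QSCs) were CD34+ Dendra2+ DAPI- cells of uninjured muscle, so CD34 was used in the sort. MyoD or MyoG chromatin was recovered from each, with 3 replicates in each of the 4 groups, and 2 input libraries were not analysed here. The study describes the replicates as biological, but whether each was a separate animal or a pool is not given in the sources used here, so p-values measure the spread between these libraries.

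MyoG (myogenin) and MyoD are basic helix-loop-helix transcription factors of the muscle lineage. Each pairs with an E protein and binds a short motif called the E-box, which reads CANNTG. MyoD marks activated and dividing myoblasts, and MyoG rises as they leave the cell cycle and form fibers, with muscle structural genes among its targets.

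Whole peak sequences were not analysed here, but 10 promoter windows of 9 genes in RefSeq (build GRCm38.p6, the assembly also called mm10, to which the submitters aligned; 250 bases before to 50 after the start of a gene) lay wholly or partly inside 8 recurring regions. The first sequences below are from 3 of the 10 loci with 5 or more recurring regions, shown because they are repeated or near repeated elsewhere, and are printed 5′ to 3′ on the strand of the gene, in lower case with E-boxes in capitals.

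Gm21119, chr8:20614677-20614976, + strand: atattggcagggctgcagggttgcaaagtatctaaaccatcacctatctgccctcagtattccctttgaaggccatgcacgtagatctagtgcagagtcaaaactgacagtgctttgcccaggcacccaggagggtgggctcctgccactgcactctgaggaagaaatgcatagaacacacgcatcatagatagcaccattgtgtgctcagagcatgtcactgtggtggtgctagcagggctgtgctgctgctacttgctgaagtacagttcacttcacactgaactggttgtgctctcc
Gm4302, chr10:100340586-100340885, + strand: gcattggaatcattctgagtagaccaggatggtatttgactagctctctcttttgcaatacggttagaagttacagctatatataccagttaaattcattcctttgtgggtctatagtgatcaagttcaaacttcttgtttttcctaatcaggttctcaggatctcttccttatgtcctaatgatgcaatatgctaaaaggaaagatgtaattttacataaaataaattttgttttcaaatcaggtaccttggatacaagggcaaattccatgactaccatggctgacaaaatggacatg
Gm21083, chr5:15577043-15577342, + strand: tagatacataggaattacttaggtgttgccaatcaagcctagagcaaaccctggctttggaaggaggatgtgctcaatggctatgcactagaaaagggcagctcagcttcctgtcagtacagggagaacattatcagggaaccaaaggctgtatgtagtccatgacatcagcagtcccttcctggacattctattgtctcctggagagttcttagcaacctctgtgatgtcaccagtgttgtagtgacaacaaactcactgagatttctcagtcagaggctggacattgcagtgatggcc
Gm21190, chr5:15529173-15529472, - strand: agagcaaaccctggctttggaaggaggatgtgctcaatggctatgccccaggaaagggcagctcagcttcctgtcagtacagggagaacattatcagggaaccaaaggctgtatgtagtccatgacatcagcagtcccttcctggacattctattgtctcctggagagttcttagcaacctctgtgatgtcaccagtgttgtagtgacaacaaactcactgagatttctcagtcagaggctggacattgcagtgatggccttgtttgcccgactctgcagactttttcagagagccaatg

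None of these windows holds an E-box. The Gm21119 window lay whole inside a region with peaks in all 3 libraries (chr8:20614273-20622121), and every 20-base word in it was also in the window of 4930467E23Rik (chr8:19729326-19729625, + strand) in the same locus. Gm4302 shared 99.3% of its 20-base words with Gm4303, and near copies, sharing at least 50% of the words, stood before 5 other genes. Gm21083 shared 76.9% with Gm21190, printed under it, and had near copies at 9 other genes. Near copies at another gene were found for 3 of the 10 windows (30.0%), against 4.64% of all 32851 promoter windows. A further pair of windows, shown because they do hold E-boxes, had no near copy at that limit.

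Gm40987, chr13:65990947-65991246, - strand: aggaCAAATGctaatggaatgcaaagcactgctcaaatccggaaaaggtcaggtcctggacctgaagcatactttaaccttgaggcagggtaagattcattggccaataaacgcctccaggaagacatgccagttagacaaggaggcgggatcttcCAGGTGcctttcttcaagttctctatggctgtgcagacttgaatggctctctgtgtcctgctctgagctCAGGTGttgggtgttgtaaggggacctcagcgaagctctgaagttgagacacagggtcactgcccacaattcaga
Gm51598, chr8:55498215-55498514, + strand: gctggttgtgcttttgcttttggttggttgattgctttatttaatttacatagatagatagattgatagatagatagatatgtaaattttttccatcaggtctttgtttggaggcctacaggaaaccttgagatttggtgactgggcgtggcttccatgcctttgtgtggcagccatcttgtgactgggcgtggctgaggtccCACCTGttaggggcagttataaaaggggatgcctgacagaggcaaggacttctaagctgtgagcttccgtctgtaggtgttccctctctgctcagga

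The Gm40987 window held 3 E-boxes, CAAATG and CAGGTG in 2 places, inside a region with peaks in all 3 libraries that the authors assigned to Rybp-ps. Gm51598 held 1 E-box, CACCTG, in a region assigned to Adam29, of which the window covered 208 bases. Over the 10 windows, 6 (60.0%) held at least 1 E-box, against 72.3% of all windows. The form CAGCTG was in 0 of the 10 and in 16.3% of all windows. CANNTG and CAGCTG read the same on both strands, and every CAGCTG is also counted as a CANNTG. These letters are a description of the windows and not of a site of binding.

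Of the 221 recurring MyoG regions, 116 (52.5%) were assigned by the authors to genes with a predicted or Riken name, and 72 (32.6%) to genes of 4 family lists. These lists cover immunoglobulin genes, olfactory and vomeronasal receptor genes, Zfp zinc-finger genes, and multi-copy genes of the sex chromosomes together with Speer genes. The 4 family lists took 11.3% of the 1560 regions of a single ASC MyoG library and 1.06% of 1985 ASC MyoD consensus regions, which are regions with a peak in at least 2 ASC MyoD lists. Genes with a predicted or Riken name took 37.7% and 15.4%, and this is a class of names, not a family. Immunoglobulin variable segments, the gene parts that encode the antigen-binding end of antibodies, took 44 regions (19.9%), all of the heavy chain family Ighv. They took 4.04% of single-library regions and 0 of the MyoD consensus regions. Zfp genes took 12 regions (5.43%), at Zfp998 and Zfp640, against 1.60% and 0.907%. Multi-copy genes such as Speer4e, Spin2f and Btbd35f29 took 16 (7.24%), against 3.40% and 0. Of these 16, the regions at Speer4cos (6) and Speer4e (3) lay on chromosome 5 and not on a sex chromosome. Olfactory and vomeronasal receptor genes took 0 recurring regions and 36 single-library regions (2.31%), and 2.02% of all ASC MyoG regions.

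None of the 221 regions was assigned to a gene of the muscle or cell lists. The list of 9 myogenic factors, the 14 Mef2 and partner factors, the 33 contractile and fusion genes, the 13 cell cycle genes, the 14 mitochondrial gene prefixes, the 15 mitochondrial regulators and the genes with a Mir or other small RNA name each had 0 recurring regions. Over all 1781 ASC MyoG regions the shares were 0.0561% at myogenic factors, 0.112% at Mef2 and partner factors, 0.168% at contractile and fusion genes and 0.112% at mitochondrial genes. They were 0 at cell cycle genes and mitochondrial regulators, and 0.505% at genes with a Mir or other small RNA name. Thus 0 of 221 is near the share of all ASC MyoG regions and is not a result about the recurring ones. Among single-library MyoG regions there was 1 at a myogenic factor (Myod1), 2 at Mef2 and partner factors, 3 at contractile and fusion genes and 2 at mitochondrial genes. The MyoD consensus regions held 4, 19, 16 and 9 of these, and 5 at cell cycle genes and 7 at mitochondrial regulators. Markers of muscle stem cells, endothelial cells, immune cells and fibro-adipogenic cells likewise had 0 recurring regions. They also had 0 of all 1781 ASC MyoG regions, so this too is not a result about the recurring ones. Presence of a peak at a marker does not measure its expression, so the purity of the sort cannot be read from these lists. The lists differ in number of regions, so shares and counts are given side by side and were not tested.

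By RefSeq type, the gene assigned to a region was protein-coding for 80 of the 221 (36.2%), against 56.3% of single-library regions and 81.7% of MyoD consensus regions. A RefSeq pseudogene body, a gene copy without a working product, was overlapped by 13.1% of the recurring regions, 3.53% of the single-library regions and 0.504% of the MyoD consensus regions. Genes of the types small nuclear RNA and small nucleolar RNA had 1 recurring region each (0.452%), against 43 (2.76%) and 44 (2.82%) single-library regions. Their shares of all 1781 ASC MyoG regions were 2.47% and 2.53%. For 27 regions the assigned name had no match in RefSeq.

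Recurring regions lay in few places. Members up to 500 kb apart were chained into 51 loci, of which 10 with 5 or more members held 164 of the 221 regions (74.2%). Another 10 loci of 2 to 4 held 26 regions, and 31 regions stood alone. The 10 large loci spanned 4936 kb in all and also held 171 single-library regions (11.0% of them). With chaining at 100 kb there were 70 loci, of which 15 with 5 or more members held 150 regions. Counted in fixed bins, 128 regions (57.9%) lay in 6 bins of 1 Mb with at least 10 recurring regions. Chromosomes 5, 8, 12, 13 and X held 176 regions (79.6%), against 36.5% of single-library and 23.2% of MyoD consensus regions, and chromosomes 3, 14, 16 and 19 held 0.

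The largest locus was the Ighv array (chr12:114837533-115885964), with 44 regions, 21 of them in all 3 libraries. These were assigned to 15 Ighv segments, led by Ighv8-11 with 6 and Ighv1-55 and Ighv8-14 with 5 each. The authors annotated 17 as promoter and 27 as distal intergenic. The locus held 58, 60 and 63 ASC MyoG peaks in replicates 1, 2 and 3, against 0, 0 and 1 ASC MyoD peaks, 1, 1 and 0 QSC MyoD peaks and 0 QSC MyoG peaks in each library. Its strongest region, at Ighv1-75 (chr12:115820152-115824200), scored 571, 279 and 579 in the 3 libraries. Scores are those of the peak caller, where 50, the lowest in any list, stands for a p-value of 1e-05 and higher scores for smaller p-values. A neighbour at the same gene (chr12:115825006-115828757) scored 239, 203 and 318. Of 2 promoter regions of Ighv1-67, one (chr12:115602759-115605640) scored 207, 171 and 127, and the other (chr12:115605789-115607630) scored 244 and 125 in replicates 2 and 3 and had no peak in replicate 1. Promoter regions of Ighv1-69 (chr12:115623036-115625109; 68.0, 257 and 110) and Ighv1-74 (chr12:115803796-115805327; 97.9, 72.8 and 118) had peaks in all 3 libraries. None of these 4 overlapped a peak of another list.

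Second was the array of Gm21847, Speer4cos, Gm17019 and Speer4e (chr5:14907404-15712869), with 34 regions, 20 of them in all 3 libraries. Speer4 genes are glutamate-rich genes known from testis. This locus had 47, 39 and 38 ASC MyoG peaks and 9, 3 and 5 QSC MyoD peaks, and 9 of its regions overlapped a QSC MyoD peak while 0 overlapped an ASC MyoD peak. The region in intron 2 of Gm21847 (chr5:15640420-15645083) scored 302, 276 and 295.

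A zinc-finger and predicted gene array (chr13:65469950-66870201) held 31 regions, 11 of them in all 3 libraries, at Gm10139 (8), Gm26639 (6), Zfp640 (6), Zfp998 (6) and 4 other genes. It held 46, 39 and 39 ASC MyoG peaks and 0 peaks of the 9 other libraries. Zfp genes encode zinc-finger proteins, many of which bind DNA and repress transcription. The promoter region of Zfp998 (chr13:66429190-66433918) scored 254, 553 and 180. A distal region at Gm26639 (chr13:65648942-65651202) scored 136, 206 and 213.

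An array on chromosome 8 (chr8:19719212-20835815) held 16 regions at Gm21092, 4930467E23Rik, Gm20778, Gm21119 and other predicted genes. They were the broadest, with a median width of 7798 bp, and the widest of all 221 was at Gm21092 (chr8:20494831-20505898, 11068 bp) with modest scores of 87.0, 78.6 and 92.4. A promoter region of Gm20778 (chr8:20821566-20832188) was 10623 bp wide and scored 76.8, 106 and 135. On the X chromosome a locus at 4932411N23Rik and Gm7746 (chrX:126692941-126778324) had 11 regions, 8 of them in all 3 libraries, all distal intergenic. Of its regions, 6 overlapped a QSC MyoG peak and 4 an ASC MyoD peak. The locus had 1 peak of ASC MyoD replicate 2, which is counted for the adjoining regions chrX:126767462-126772339 and chrX:126772406-126774335. Its ASC MyoG peaks numbered 13, 11 and 17 and its QSC MyoG peaks 4, 5 and 2.

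The remaining large loci were 1600014C10Rik on chromosome 7 (8 regions) and 4 loci of 5 regions each. The Gm8711 and Gm4302 cluster on chromosome 10 had 5 regions, all annotated promoter and each in only 2 libraries. The Gm371 cluster on X (chrX:94897291-94976801) had 5 regions, and 2 of them overlapped both QSC MyoD and QSC MyoG peaks. Across libraries, 24.6 to 33.2% of all ASC MyoG peaks lay in the 10 large loci, against 0.131 to 0.151% of ASC MyoD, 4.02 to 8.19% of QSC MyoD and 3.59 to 4.32% of QSC MyoG peaks. The loci were chosen with the ASC MyoG peaks, so the first range is a description. The ASC MyoD range lay below both QSC ranges, which overlapped each other. In numbers, these were 4, 3 and 3 ASC MyoD, 14, 7 and 7 QSC MyoD and 5, 7 and 6 QSC MyoG peaks. The ASC MyoD lists hold 2262 to 2652 peaks, against 139 to 174 for QSC MyoD and 120 to 167 for QSC MyoG. The part of list length in these shares was not tested.

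**Figure D1:**
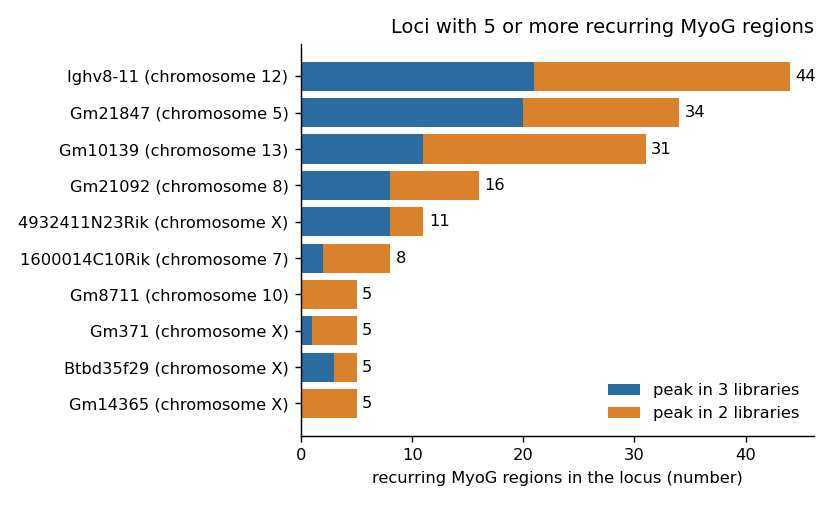
Number of recurring MyoG regions (x axis) in each of the 10 loci with 5 or more of them, named by the gene assigned to most regions. Blue marks regions with a peak in 3 ASC MyoG libraries and orange those with a peak in 2. The Ighv, Gm21847 and Gm10139 loci held 44, 34 and 31 of the 221 regions.

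Recurring regions were broad. Their median width was 1600 bp (interquartile range 1039 to 2979 bp, range 564 to 11068 bp) and 54 exceeded 3 kb, against a median of 615 bp in single-library regions and 982 bp in MyoD consensus regions. A merged span of several peaks is wider than a single peak, so width was also taken per peak. In the 3 libraries the median peak inside recurring regions was 1181, 1078 and 1124 bp wide, and the median peak elsewhere 633, 597 and 611 bp. Peaks inside were wider in 3 of 3 libraries. The rule keeps peaks that overlap a peak of another list, which wide peaks do more easily. The widths per peak are therefore a description too. Regions in all 3 libraries had a median span of 2187 bp and those in 2 libraries 1214 bp. The narrowest was at Gm9923 (chr10:72296819-72297382, 564 bp).

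Scores followed the same order. The mean score over libraries had a median of 81.8 (range 52.4 to 583), with 102 in the 93 regions of all 3 libraries and 72.8 in the 128 of 2 libraries, against 55.0 in single-library regions. Of the 50 strongest peaks in each list, 45, 48 and 49 lay in recurring regions. At the edge of the rule, the best score of a region in 2 libraries was as low as 53.4 (median 82.4), while 23 single-library regions scored at least 100. The highest of those was 448 at Gm10800 (chr2:98666082-98667494) in replicate 1. It stood next to 3 recurring regions at Gm10801, all annotated promoter and without a peak in replicate 3. The one at chr2:98663466-98664369 scored 185 and 168 in replicates 1 and 2, and had an ASC MyoD peak (61.05) and a QSC MyoD peak (98.3). Beside it, chr2:98664549-98665587 scored 142 and 112 in replicates 1 and 2, and had an ASC MyoD peak (93.2) and a QSC MyoD peak (84.6). The other, chr2:98661943-98663438, had an ASC MyoD peak (72.4) and no QSC peak. The second highest single-library score was 171.

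Within the 93 regions of all 3 libraries the score ranks agreed loosely. Spearman's rho was 0.39 between replicates 1 and 2, 0.26 between 1 and 3 and 0.42 between 2 and 3. These are descriptions across regions, which share libraries and gene families and are not independent. Width and mean score had a rho of 0.47 over the 221 regions and 0.21 over the 93 regions of all 3 libraries.

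**Figure D2:**
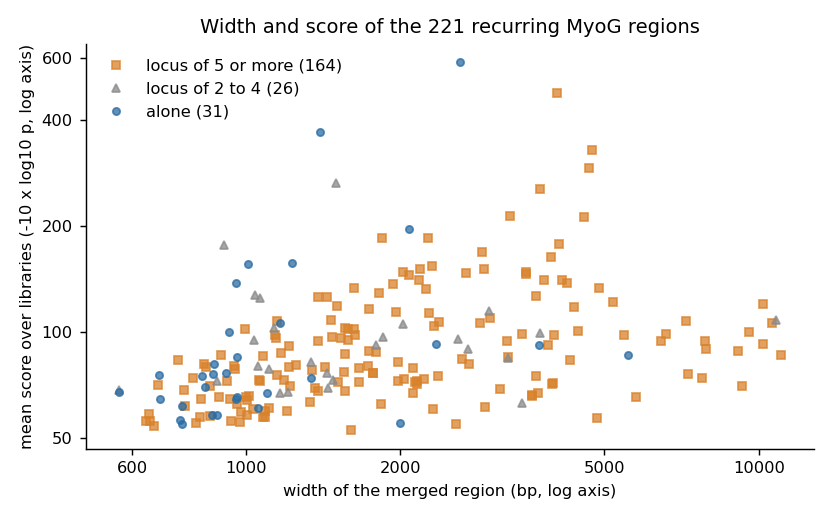
Width in bp (x axis, log) and mean score over the libraries with a peak (y axis, log) of each of the 221 recurring MyoG regions. Blue circles are the 31 regions alone in their locus, grey triangles the 26 in loci of 2 to 4, and orange squares the 164 in loci of 5 or more, which include nearly all of the broadest regions. The topmost point is the Akap9 region, with a mean score of 583.

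Annotation differed from the rest of the same libraries. Of the 221 regions, 59 (26.7%) had their strongest peak at a promoter, which the authors count within 3 kb of a start site, 118 (53.4%) were distal intergenic and 35 (15.8%) were in introns. Another 5 were in exons, 3 in 3′ UTRs and 1 downstream of a gene. Single-library regions were 11.7% promoter, 60.5% distal intergenic and 23.5% intron, and MyoD consensus regions 22.7%, 35.5% and 35.2%. Within each ASC MyoG list, promoter peaks made up 25.1, 25.7 and 23.1% of peaks inside recurring regions (24.7% ± 1.37, SD, n = 3) and 11.4, 12.9 and 11.1% of the other peaks (11.8% ± 0.945). The values did not overlap. By the rule, the inside peaks of the 3 libraries lie in shared regions, so their SD is not a spread of independent sets. Inside peaks were also wider, and the part of width was not tested. Intron peaks went the other way, at 15.8% ± 0.438 inside and 23.7% ± 0.840 elsewhere, and distal intergenic peaks at 56.0% ± 1.68 and 60.5% ± 0.329. Inside peaks came from rule-chosen regions and 45 of the 59 promoter regions lay in the large loci, so no test was run. Counting promoters within 1 kb of a start site alone, the share of the 221 regions was 13.6%, and the other sets were not counted this way. The 31 regions alone in their locus were 16.1% promoter and 48.4% intron. All 1781 ASC MyoG regions were 13.6% promoter (within 3 kb) and 22.6% intron, so the lower intron share was not seen in lone regions.

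**Figure D3:**
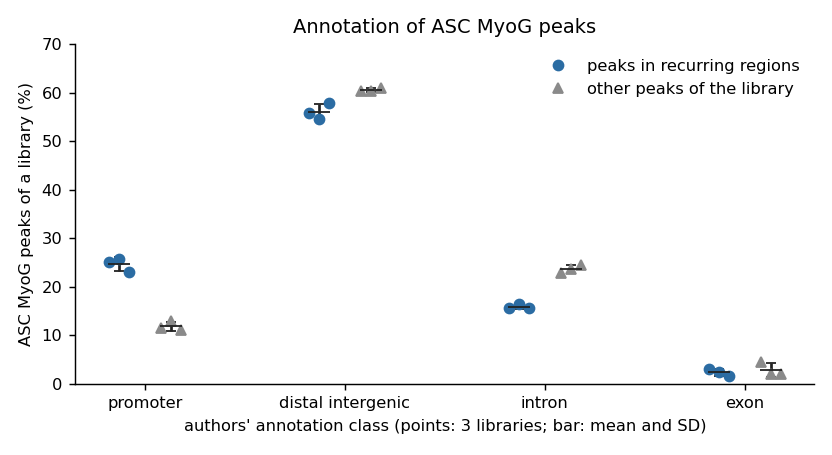
Percent of ASC MyoG peaks (y axis) in each annotation class (x axis) for peaks inside recurring regions (blue circles) and all other peaks of the same library (grey triangles). Points are the 3 libraries, and bars are the mean and SD. Promoter peaks were 23.1 to 25.7% inside and 11.1 to 12.9% elsewhere.

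The next question was whether a region found in a pair of libraries is found in the third, which the pair did not use. Regions with a peak in both lists of a pair had a peak in the held-out library in 91 of 132 cases (68.9%) for replicate 1, 98 of 138 (71.0%) for replicate 2 and 95 of 142 (66.9%) for replicate 3. Regions with a peak in only 1 list of the pair were recovered in 11.4, 7.51 and 7.59% of cases. The mean difference was 60.1 percentage points and was positive in 3 of 3 libraries. The calls are those the rule used, so these shares are a description. Without the 10 large loci recovery was 67.9, 55.9 and 57.6% of 28, 34 and 33 regions, against 3.98, 2.19 and 2.42%. Of the 221 regions, 93 had peaks in all 3 libraries, 47 in replicates 1 and 2 only, 40 in 1 and 3 and 41 in 2 and 3.

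Overlap with the 9 other lists was rare. A peak of at least 1 other library was present in 40 of the 221 regions (18.1%), against 7.19% of all 1781 ASC MyoG regions, and 181 regions had none. ASC MyoD peaks were present in 23 regions (10.4%, against 5.73% of all ASC MyoG regions), QSC MyoD peaks in 18 (8.14%, against 1.35%) and QSC MyoG peaks in 14 (6.33%, against 1.07%). Thus 207 of the 221 regions had no MyoG peak in QSCs. The QSC MyoG lists are short, with 120 to 167 peaks against 605 to 916 in the ASC MyoG lists. A missing QSC MyoG peak is therefore not read as binding found only in ASCs. Per 100 peaks, QSC MyoG lists overlapped 4.19 to 5.56 of the 221 regions. Both QSC antibodies had a peak in 7 regions, and 8 regions had both an ASC MyoD and a QSC peak. With at least 2 ASC MyoD lists required, 11 regions remained (4.98%), which is close to the 4.15% of all ASC MyoG regions. Of the 74 ASC MyoG regions shared with at least 2 ASC MyoD lists, 63 were in 1 MyoG library, with a median score of 58.8. Recurring regions were wider than all ASC MyoG regions (median 1600 against 636 bp). The part of width in these overlap shares was not tested.

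By library, ASC MyoD peaks overlapped 12, 15 and 15 of the 221 regions (14.0 ± 1.73, SD, n = 3) and QSC MyoD peaks 11, 7 and 12 (10.0 ± 2.65), so the groups overlapped. The difference of 4.00 regions gave p = 0.2 by an exact two-sided permutation test (adjusted 0.3 over 4 tests, smallest possible p 0.1). The ASC MyoD lists hold 2262 to 2652 peaks and the QSC MyoD lists 139 to 174, so per 100 peaks the overlap was 0.452 to 0.663 regions for ASC MyoD and 5.04 to 6.90 for QSC MyoD, without overlap between the groups. With only peaks scoring at least 80, the difference turned to -1.33 regions. QSC MyoG peaks overlapped 6, 9 and 7 regions (7.33 ± 1.53), which was 2.67 fewer than QSC MyoD. The exact two-sided permutation p was 0.3 (adjusted 0.3).

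Recurring and single-library regions were then compared in their overlap with ASC MyoD. In the 3 ASC MyoD libraries the percentages were 5.43, 6.79 and 6.79% of recurring and 4.55, 4.23 and 3.85% of single-library regions, with 95% Wilson intervals for the recurring regions of 3.13 to 9.25, 4.16 to 10.9 and 4.16 to 10.9% that cover the counting of regions only. The mean difference was 2.13 percentage points, positive in 3 of 3 libraries (exact two-sided sign-flip permutation p = 0.25, adjusted 0.3, the smallest possible). Recurring regions are also wider, and the part of width in this difference was not tested. The difference turned to -3.14 points with peaks scoring at least 80 and to -0.165 points when ASC MyoG replicate 1 was left out. With all peaks in the 10 large loci removed, it was 15.8 points.

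Lone and clustered regions differed in their MyoD overlap. Of the 31 that stood alone, ASC MyoD peaks were present in 9, 11 and 12 by library (29.0, 35.5 and 38.7%). Of the 164 in large loci they were present in 3, 2 and 2 (1.83, 1.22 and 1.22%). The ranges lay far apart, and single-library regions, at 3.85 to 4.55%, lay between them. In the QSC lists the split was smaller, and in QSC MyoD replicate 1 it went the other way (3.23% of lone and 6.10% of large-locus regions). QSC MyoD peaks were present in 3.23 to 12.9% of lone regions and 2.44 to 6.10% of those in large loci, and QSC MyoG peaks in 3.23 to 12.9% and 3.05%. Lone regions were also narrower, with a median of 955 bp against 1824 bp, and 15 of the 31 (48.4%) were in introns against 11.0%. Median scores were 75.4 and 82.4. The split into lone and clustered regions was made after the data had been seen and has no test.

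**Figure D4:**
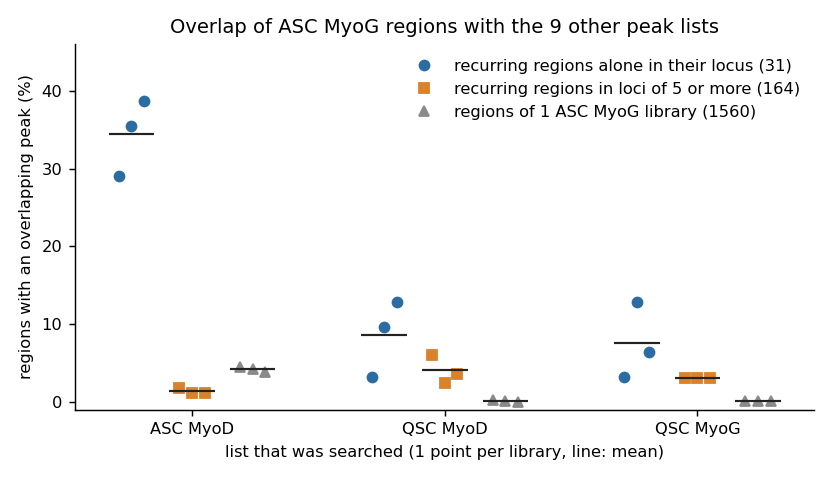
Percent of ASC MyoG regions with an overlapping peak (y axis) in each library of the 3 other groups (x axis; points are libraries, lines are means). Blue circles are lone recurring regions, orange squares recurring regions in loci of 5 or more, and grey triangles regions of 1 ASC MyoG library. For ASC MyoD the lone regions lie between 29.0 and 38.7%, and the others at or below 4.55%.

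The regions shared with at least 2 ASC MyoD lists numbered 11, of which 8 had no QSC peak. Scores depend on the depth of each library, which is unknown, so the antibodies are compared by percentile rank within a list, averaged over the libraries with a peak, and not as binding strength. Of these 8, 7 stood alone, and in 6 of the 7 the MyoD percentile was above the MyoG percentile. In the rest of the 11, which include all those with a QSC peak, the MyoG percentile was above. The 11 were chosen for their MyoD peaks, so this is a description. The highest MyoD percentile was in intron 7 of Mnat1 (chr12:73241834-73242696), which encodes a subunit of the kinase that activates cyclin-dependent kinases. It scored 68.6, 70.1 and 88.7 in the ASC MyoG libraries and 574, 358 and 505 in the ASC MyoD libraries. Its MyoD peaks stood at a mean percentile of 99.7 within the MyoD lists, while its MyoG peaks stood at 78.0 within the MyoG lists.

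The region nearest to Zbtb18 (chr1:177555319-177556245), a zinc-finger repressor with a known role in muscle differentiation, scored 70.9 and 129 in MyoG replicates 1 and 3, had no peak in replicate 2, and scored 189, 124 and 102 for MyoD. It was the exception, with a mean percentile of 86.9 for MyoG and 84.6 for MyoD. In intron 3 of Plxna1 (chr6:89347714-89349053), a receptor for semaphorins, MyoG scored 94.9 and 52.3 in replicates 1 and 2 and MyoD scored 292, 203 and 242. In intron 7 of Cap2 (chr13:46619284-46620337), an actin-binding protein of muscle, MyoG scored 53.0 and 68.7 in replicates 1 and 2 and MyoD 228, 227 and 117. Plxna1 stood at a percentile of 54.9 for MyoG and 96.9 for MyoD, and Cap2 at 49.9 and 91.8. All 3 regions had a MyoD peak in every ASC MyoD library and a MyoG peak in only 2 libraries.

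Intron 1 of Nckap5 (chr1:126484413-126485288) scored 55.2 and 60.4 for MyoG in replicates 2 and 3 and 179.6, 208 and 164 for MyoD. Distal regions on chromosome 15 nearest to Gm26416 (chr15:31207084-31207915) and Gm23907 (chr15:65585308-65585986) had MyoD scores of 400.1, 253 and 288, and of 419, 79.0 and 165. Their MyoG scores were 53.3 and 85.5 in replicates 1 and 2, and 69.3 and 59.3 in replicates 1 and 3. Percentiles for MyoG and MyoD were 47.6 and 93.3 at Nckap5, 59.2 and 98.6 at Gm26416, and 65.1 and 83.3 at Gm23907. The eighth region, at 4932411N23Rik in the X locus (chrX:126767462-126772339), scored 117, 179 and 103 for MyoG and 71.2 and 81.5 for MyoD, with no MyoD peak in replicate 3. It stood at 93.8 for MyoG and 52.9 for MyoD. Its MyoD peak in replicate 2 also overlapped the adjoining recurring region chrX:126772406-126774335.

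The other 3 shared regions also had QSC peaks. The region in intron 10 of Dpp9 (chr17:56199613-56200567), a dipeptidyl peptidase, had a peak in all 12 lists, with scores of 106, 179 and 128 for ASC MyoG, 76.1, 136 and 71.1 for ASC MyoD, 92.2, 86.3 and 79.4 for QSC MyoD and 108, 108 and 91.4 for QSC MyoG. The region nearest to Gm9075 (chr12:3109342-3110572) had peaks in 9 lists and scored 197, 135 and 139 for ASC MyoG. The one in exon 5 of Chl1 (chr6:103648583-103649747), a neural cell adhesion gene, had peaks in 7 lists and scored 86.6, 155 and 75.0 for ASC MyoG. The mean percentile for ASC MyoG was above that for ASC MyoD in these 3, at 94.96 against 63.8 for Dpp9, 96.5 against 68.9 for Gm9075 and 86.7 against 56.0 for Chl1.

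**Figure D5:**
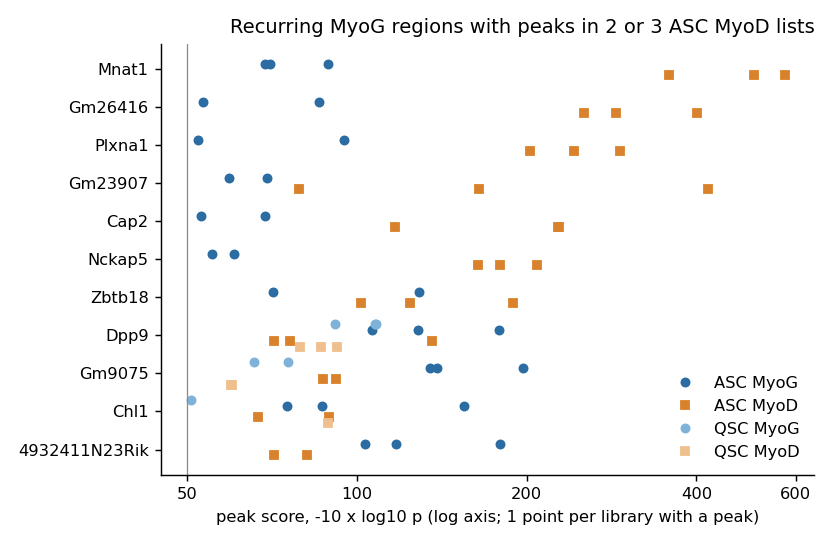
Scores (x axis, minus 10 times log10 p, log) of the 11 recurring MyoG regions with peaks in 2 or 3 ASC MyoD lists, 1 point per library with a peak; libraries without a peak have no point. Dark blue circles are ASC MyoG, orange squares ASC MyoD, light blue circles QSC MyoG and light orange squares QSC MyoD, and the grey line is the lowest score in the lists. For Mnat1, MyoD points lie between 358 and 574 and MyoG points between 68.6 and 88.7.

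Among the 14 regions with a QSC MyoG peak, 10 were in the large loci and 4 were the Dpp9, Gm9075, Chl1 and Cdh18 regions. The Cdh18 region, in intron 1 of a cadherin gene (chr15:23069937-23070685), scored 67.5 and 55.6 in ASC MyoG replicates 1 and 2 and 60.5 in QSC MyoG replicate 2. The Gm371 region (chrX:94912742-94916557) had a peak in all 3 QSC MyoG libraries (80.9, 101 and 55.6) and all 3 QSC MyoD libraries (126, 85.5 and 59.5), beside ASC MyoG scores of 154 and 125 and no ASC MyoD peak. At 4932411N23Rik the region chrX:126763492-126767172 scored 101, 60.1 and 63.3 in ASC MyoG and 127 and 52.5 in QSC MyoG replicates 1 and 2.

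The other 8 of these regions lay in the same 2 loci or the Gm21847 locus, and their QSC MyoG peaks were in 1 or 2 libraries. At 4932411N23Rik, chrX:126753152-126754614 scored 72.6, 74.7 and 177 in ASC MyoG and 105 and 98.1 in QSC MyoG replicates 1 and 2. Its neighbours chrX:126774543-126776268 (92.2, 54.2 and 93.0) and chrX:126750818-126752327 (92.0 and 52.2 in replicates 1 and 2) each had a single QSC MyoG peak, scoring 88.5 in replicate 3 and 83.7 in replicate 1. At Gm7746, chrX:126692941-126695127 scored 120 and 225 in ASC MyoG replicates 1 and 2 and 108 in replicate 3, beside 51.2 and 66.9 in QSC MyoG replicates 1 and 2. The adjoining chrX:126695199-126695870 scored 62.4 and 78.2 in ASC MyoG replicates 1 and 3 and 55.1 in QSC MyoG replicate 2. At Gm17019, chr5:15004269-15009718 scored 148, 92.1 and 52.9 in ASC MyoG, and chr5:15017943-15020080 scored 69.2 and 74.9 in replicates 2 and 3. Both had a QSC MyoG peak in replicate 3, at 50.2 and 64.8. The last was at Gm371 (chrX:94897291-94903894), with 159, 85.2 and 51.6 in ASC MyoG and 50.5 in QSC MyoG replicate 3.

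The strongest recurring region of all had no peak in any other list. It lay in intron 33 of Akap9 (chr5:4052154-4054768), which encodes a scaffold protein of the centrosome and Golgi, and scored 518, 549.6 and 680.2 in the ASC MyoG libraries. The region nearest to Gm5614 (chr9:35304698-35306088) scored 400.1, 351 and 355 and had 1 ASC MyoD peak (159) and 2 QSC MyoD peaks (94.6 and 186). The region in intron 2 of Zswim6 (chr13:107858174-107860251) scored 124 and 267 in replicates 2 and 3, with no peak in replicate 1 or in the 9 other lists. Promoter regions of 1600014C10Rik (chr7:38187523-38190798; 200.2, 180.3 and 258) and Gm10139 (chr13:65513807-65515831; 96.1, 115 and 232) likewise had peaks in all 3 ASC MyoG libraries and in none of the others.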

How the data were processed

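ChIP-seq reads were aligned with BWA 0.7.5 to mm10 and peaks were called with MACS, whose version is not given in the sources used here; deepTools 3.5.0 is also named (submitters' processing notes). Each deposited list holds 1 library, with positions in bp (unit: other) and a score, which the authors wrote as the negative log10 of the peak p-value multiplied by 10, and the authors' gene and annotation class. The lists carry no read counts, so depth is unknown, and intervals or floors on reads cannot be given. The use of the inputs and of reads that map to several places is not given in the sources used here.

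Peaks of the 3 ASC MyoG lists were merged at an overlap of 1 bp and kept with peaks in at least 2 lists (Python 3.11.15, pandas 2.3.3, SciPy 1.17.1). The annotation of a region is that of its highest-scoring peak. Overlap with another list required 1 bp. Exact two-sided permutation tests over libraries (20 relabelings, smallest p 0.1) and sign-flip permutation tests (8 sign patterns, smallest p 0.25) were adjusted by Benjamini-Hochberg over 4 tests, so none could pass 0.05. Members, gene lists and tests were chosen with earlier results of these data known, and loci after seeing the data. Merging and overlap were tested on simulated lists. RefSeq names, gene bodies and promoter windows are of build GRCm38.p6.

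Named regions were the strongest by mean percentile rank of score (10 outside and 5 inside crowded 1-Mb bins, and 10 at promoters), those with peaks in at least 2 ASC MyoD lists or in a QSC MyoG list (at most 15 each), and the widest, the narrowest and the one in most lists. Myod1, Gm10800, Rybp-ps, Adam29, Speer4, Spin2f, Btbd35f29 and the genes of promoter windows were named after their values were seen, and 1 named region on chromosome 18 is not described. Alternatives were a score of at least 80 (p of 1e-08), an overlap of 50% of both peaks, a merging gap of 500 bp, chromosomes 1 to 19 and X only, removal of crowded bins, all 3 lists required, promoters within 1 kb, bins of at least 5, pairing by replicate number and leaving out libraries.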

Additional observations from a re-analysis of the deposited data

How the results depend on the processing

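Of 114 recomputed values of 11 results, 74 kept their direction and stayed within the set limit, 37 moved and 3 reversed. The 74 include values that could not change, namely those for chromosomes 1 to 19 and X and for pairing by replicate number. They also include tested differences of the same sign but another size. Without ASC MyoG replicate 1, the ASC minus QSC MyoD difference was 0.667 regions against 4 and was counted as kept. The count of 74 is therefore not a measure of stability. With scores of at least 80, 84 recurring regions were left, 31 in all 3 libraries, 81 without a QSC MyoG peak, 13 with a peak in the other 9 lists and 35 in crowded bins, with 25% promoter and 56.0% distal intergenic. The difference between ASC and QSC MyoD libraries turned to -1.33 regions and the recurring minus single-library overlap to -3.14 percentage points. The cause was not tested. Without crowded bins, 93 regions were left (29 in all 3 libraries, 87 without a QSC MyoG peak, 20 with a peak in the other lists, 49.5% distal intergenic). Requiring all 3 lists left 93 regions (84 without a QSC MyoG peak, 22 with a peak in the other lists, 22.6% promoter, 55.9% distal intergenic), and the difference between ASC and QSC MyoD libraries was then 0. An overlap of 50% of both peaks left 59 regions in all 3 libraries, a gap of 500 bp gave 55.3% distal intergenic, and promoters within 1 kb gave 13.6%. Without the 10 large loci, an alternative chosen after seeing the data, 24.6% were promoter, 42.1% distal intergenic, and 17 regions had a peak in the other lists. Restriction to chromosomes 1 to 19 and X changed no value and could not, because chromosome Y held 0 ASC MyoG regions.

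Leaving out 1 library gave 132 to 142 regions, of which both remaining lists had to hold a peak, 124 to 130 without a QSC MyoG peak, 22 to 34 with a peak in the other lists, 60 to 81 in crowded bins, 23.5 to 26.1% promoter and 52.8 to 55.3% distal intergenic. The recurring minus single-library overlap then ranged from -0.165 (without ASC MyoG replicate 1) to 3.83 points, the ASC minus QSC MyoD difference from 0.667 to 5.00 and the QSC MyoG minus MyoD difference from -4.17 to -1.67 regions. Pairing by replicate number, as a replicate block, gave the same differences of 4.00 (exact sign-flip p 0.25) and -2.67 regions (p 0.5), and only a number is shared. E-box content of the regions was not run, because no genome sequence of the build was used here.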
